A study of Homo sapiens with 32 samples.

Results

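The genes described here are 10 transcription factor and immediate early genes, FOS, FOSB, FOSL1, FOSL2, JUN, JUNB, JUND, ATF3, EGR1 and IER2. They were taken from the deposited count table by an exact match of the gene symbol, and all 10 were found once among its 61541 genes. RNA had been sequenced from 2 human germ cell cancer cell lines, TCam-2, which comes from a seminoma and was grown in RPMI medium, and NTera2, which comes from an embryonal carcinoma and was grown in DMEM, both with fetal bovine serum. Cells of each line received RANKL at 1 µg/ml, OPG at 1 µg/ml, denosumab, or the vehicle D-PBS for 48 h, and cells were detached with trypsin before collection. RANKL is a cytokine of the TNF family, and OPG, its soluble decoy receptor, and denosumab, an antibody to it, both keep it from its receptor RANK. The protocol named no dose for denosumab and listed RANKL a second time where the antibody would stand, so the identity of those libraries rests on their titles and treatment labels. Each of the 8 groups (TCam-2 RANKL, TCam-2 OPG, TCam-2 denosumab, TCam-2 vehicle, and the same 4 of NTera2) held 4 libraries. Replicates 1 to 4 were separate experiments at passages 118, 120, 121 and 122 of TCam-2 and at passages 27, 29, 30 and 31 of NTera2, so the 4 treatments of a line shared a passage. Each group is thus a model of 1 cell line in serum at a single time.

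AP-1 is a dimeric transcription factor in which a FOS family protein (FOS, FOSB, FOSL1 or FOSL2) pairs through a leucine zipper with a JUN family protein (JUN, JUNB or JUND), and the pair binds DNA through the basic region beside the zipper. Many of these genes are immediate early genes: growth factors, cytokines and stress switch them on through ERK, JNK and p38 kinases acting on factors already present in the cell, without new protein synthesis, and the RNA of FOS, JUN, EGR1 and IER2 normally falls again soon after the stimulus. In osteoclast precursors RANK signalling activates these kinases, and FOS is needed there for osteoclasts to form. EGR1 is a zinc finger factor, IER2 a small nuclear protein, and ATF3 a stress-induced bZIP factor that can pair with JUN proteins.

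Total counts per library were 10585247 to 20257935 in TCam-2 and 11385500 to 30499538 in NTera2. Marker genes fitted the labelled lines over their 16 libraries: SOX17, a seminoma and primordial germ cell factor, averaged 155 CPM (counts scaled to library size) in TCam-2 and 0.0521 CPM in NTera2, and SOX2, an embryonal carcinoma factor, averaged 2.46 CPM in TCam-2 and 270.2 CPM in NTera2. The 6 leukocyte markers examined reached at most 1.24 CPM in any library, and of 7 fibroblast markers FAP was at 0 in all 32 and DCN above 0 in 1 library of each line. PDGFRA, PDGFRB and COL1A1 averaged 1.03, 3.40 and 7.69 CPM in TCam-2 and 6.25, 36.9 and 27.5 CPM in NTera2, while COL3A1 and LUM averaged 2.32 and 0.263 CPM in TCam-2 and 0.0331 and 0.0553 CPM in NTera2. The RNA integrity number (RIN) was 8.3 or higher except for 6.1 in TCam-2 RANKL replicate 2 and 3.7 in TCam-2 RANKL replicate 4, and NTera2 vehicle replicate 1 had none. Fold changes printed for the 10 genes from the RANKL group of TCam-2 are also given without these low-RIN libraries.

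The promoters of EGR1, JUN, FOS and JUND are shown because EGR1, JUN and FOS differ widely between the lines below, because JUND was the most abundant JUN family RNA per length, and because their proximal promoters hold textbook control elements: CArG boxes, where SRF binds downstream of ERK, the cAMP response element (CRE, TGACGTCA) with its half-site TGACGT, and the variant AP-1 site TGACATCA. Each sequence is the 250 bases before the RefSeq start of the gene (GRCh38.p14), 5′ to 3′ on the gene's strand, with matches on either strand in capitals. The EGR1 window is chr5:138465229-138465478 (+), the JUN window chr1:58784048-58784297 (−), the FOS window chr14:75278578-75278827 (+) and the JUND window chr19:18281623-18281872 (−).
EGR1: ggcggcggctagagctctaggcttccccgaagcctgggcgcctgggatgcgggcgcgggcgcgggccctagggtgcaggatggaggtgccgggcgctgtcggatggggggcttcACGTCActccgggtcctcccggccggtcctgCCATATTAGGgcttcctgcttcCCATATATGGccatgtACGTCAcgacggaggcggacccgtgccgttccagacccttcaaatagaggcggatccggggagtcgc
JUN: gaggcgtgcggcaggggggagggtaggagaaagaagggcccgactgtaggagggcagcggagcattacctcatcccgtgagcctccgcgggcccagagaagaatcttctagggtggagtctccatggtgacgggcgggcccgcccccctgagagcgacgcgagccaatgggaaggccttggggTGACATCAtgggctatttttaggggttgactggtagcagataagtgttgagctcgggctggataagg
FOS: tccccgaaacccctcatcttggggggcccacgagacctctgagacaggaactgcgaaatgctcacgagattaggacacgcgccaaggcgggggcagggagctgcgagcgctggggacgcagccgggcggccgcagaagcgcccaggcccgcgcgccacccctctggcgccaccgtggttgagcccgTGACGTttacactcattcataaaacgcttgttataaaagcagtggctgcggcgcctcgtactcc
JUND: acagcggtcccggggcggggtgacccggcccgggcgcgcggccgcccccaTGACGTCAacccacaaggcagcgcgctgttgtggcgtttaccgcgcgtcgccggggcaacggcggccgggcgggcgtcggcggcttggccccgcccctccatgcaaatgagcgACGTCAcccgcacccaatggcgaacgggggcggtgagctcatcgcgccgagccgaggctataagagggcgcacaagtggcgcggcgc
EGR1 held 2 CArG boxes, CCATATTAGG at 105 to 96 and CCATATATGG at 83 to 74 bases before the start, and 2 CRE half-sites, each written here as its reverse complement ACGTCA. JUN held TGACATCA at 67 to 60 bases before the start. FOS held a CRE half-site at 64 to 59 bases. No CArG box matched in its 250-base window, and bases further upstream were not searched, so a CArG box there would be missed. JUND held a full CRE at 200 to 193 bases, which contains overlapping half-sites on both strands, and 1 more half-site at 87 to 82 bases.

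RefSeq promoters were found for 9 of the 10 genes, with 2 for ATF3 (10 entries); FOSL1 had no entry. FOSB and FOSL2 also held a CRE half-site, at 60 to 55 and 66 to 61 bases before the start, and the first ATF3 promoter held TGACATCA at 123 to 116 bases. The classical AP-1 site TGAGTCA (TRE) and the EGR1 site GCGTGGGCG were also searched on both strands, and neither matched in any of the 10 windows. Among 35116 RefSeq promoters of the same length, 1.16% held a CArG box, 1.65% a CRE, 7.10% a CRE half-site, 2.37% TGACATCA, 4.2% TGAGTCA and 0.720% GCGTGGGCG. These matches describe the letters only and say nothing of binding in these cells.

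The deposited table (hg38) places FOS (ENSG00000170345) at chr14:75278826-75282230 (+), FOSB (ENSG00000125740) at chr19:45467995-45473012 (+), FOSL1 (ENSG00000175592) at chr11:65892049-65900573 (−) and FOSL2 (ENSG00000075426) at chr2:28392448-28417317 (+). It places JUN (ENSG00000177606) at chr1:58776845-58784048 (−), JUNB (ENSG00000171223) at chr19:12791486-12793315 (+) and JUND (ENSG00000130522) at chr19:18279694-18280929 (−). ATF3 (ENSG00000162772) lies at chr1:212565334-212620777 (+), EGR1 (ENSG00000120738) at chr5:138465479-138469303 (+) and IER2 (ENSG00000160888) at chr19:13150411-13154249 (+). FOSL2 overlaps 2 other genes, one on its own strand, and FOSB, JUNB and IER2 overlap genes on the opposite strand (ERCC1 and HOOK2 among them), so reads there are uncertain because the strand setting of the counting is not given in the sources used here.

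The lines built their FOS family from different members. Per length (RPKM, CPM per kilobase of the deposited gene length), FOS made up 72.1% of the summed FOS family in TCam-2 (range 55.7 to 81.6% over 16 libraries) and 14.8% in NTera2 (11.2 to 20.5%). FOSL1, also called FRA-1, a FOS protein without the strong activation domain of FOS, made up 10.7% in TCam-2 (3.48 to 19.2%) and 74.3% in NTera2 (68.8 to 77.1%). The ranges of the lines did not overlap for either gene. FOSL2 (FRA-2) held 16.3% in TCam-2 and 9.69% in NTera2, and FOSB 0.879% in TCam-2 and 1.19% in NTera2. The summed FOS family level was 11.5 ± 3.56 RPKM in TCam-2 and 18.3 ± 1.25 RPKM in NTera2 (SD, n = 16 libraries each).

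JUND, the JUN family member usually expressed without a stimulus, was the most abundant JUN RNA per length in both lines, with 87.6% of the summed family in TCam-2 (81.6 to 92.7%) and 76.1% in NTera2 (70.5 to 81.0%). JUN held 5.72% in TCam-2 (2.65 to 11.6%) and 22.5% in NTera2 (18.9 to 28.6%). JUNB, which can also act as a brake on JUN, held 6.67% in TCam-2 and 1.35% in NTera2. The JUN family sum was 23.5 ± 4.80 RPKM in TCam-2 and 37.0 ± 7.32 RPKM in NTera2. The deposited lengths of FOSB (5553 bases) and JUND (1929 bases) exceed the genomic span given for them (5018 and 1236 bases), as they do for 458 genes of the table. For JUND the deposited interval (chr19:18279694-18280929) stops short of the RefSeq start, which borders its promoter window (chr19:18281623-18281872). Whether the length or the span is off was otherwise not tested.

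**Figure D1:**
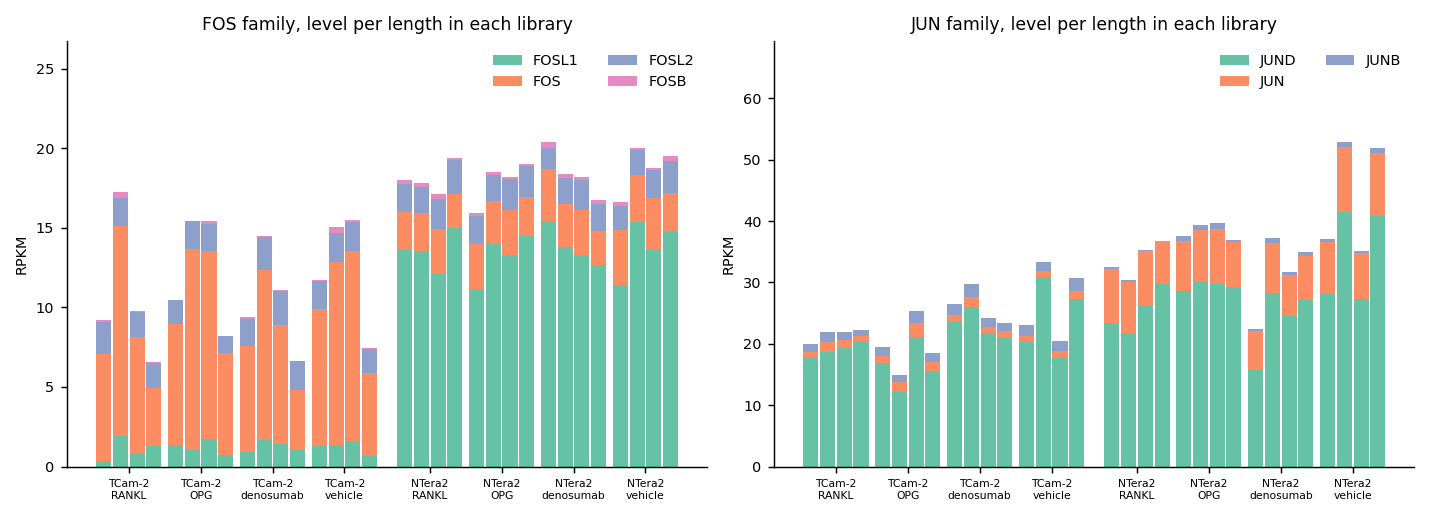
Levels per length (RPKM) of the FOS family (left) and the JUN family (right) in each of the 32 libraries, stacked by gene, with replicates 1 to 4 from left to right within each group. FOS takes most of each TCam-2 bar and FOSL1 most of each NTera2 bar, and JUND takes most of every JUN family bar.

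Over all 10 genes the order of the mean level per length in TCam-2 was IER2 (43.7 RPKM), EGR1 (28.0), JUND (20.6), ATF3 (10.1), FOS (8.45), FOSL2 (1.73), JUNB (1.55), JUN (1.28), FOSL1 (1.20) and FOSB (0.109). In NTera2 it was JUND (28.3 RPKM), IER2 (14.7), FOSL1 (13.6), JUN (8.19), ATF3 (6.82), EGR1 (3.41), FOS (2.7), FOSL2 (1.77), JUNB (0.511) and FOSB (0.217). Neighbours whose means differed by less than the larger of their SDs over the 16 libraries were ATF3 and FOS, and FOSL2, JUNB, JUN and FOSL1 in turn, in TCam-2, and IER2 and FOSL1 in NTera2. EGR1 stood at rank 2 in TCam-2 and rank 6 in NTera2, and FOSL1 at rank 9 in TCam-2 and rank 3 in NTera2.

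In CPM, where only the same gene can be compared between libraries, FOS, FOSL1, JUN, EGR1 and IER2 did not overlap between the 16 TCam-2 and the 16 NTera2 libraries. These 5 of 10 genes stand against 47.1% of 19216 genes that did not overlap in the same way, so this share is near the background. In TCam-2 the spread was widest for FOSB and FOS, with coefficients of variation of 101% and 37.0% over 16 libraries, against 32% and 13.9% for these genes in NTera2, where JUNB was widest at 52.0%. FOSB had 0 to 35 counts per TCam-2 library, and the library without any, OPG replicate 4, allows up to 0.157 CPM (3 counts, counting error only).

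**Figure D2:**
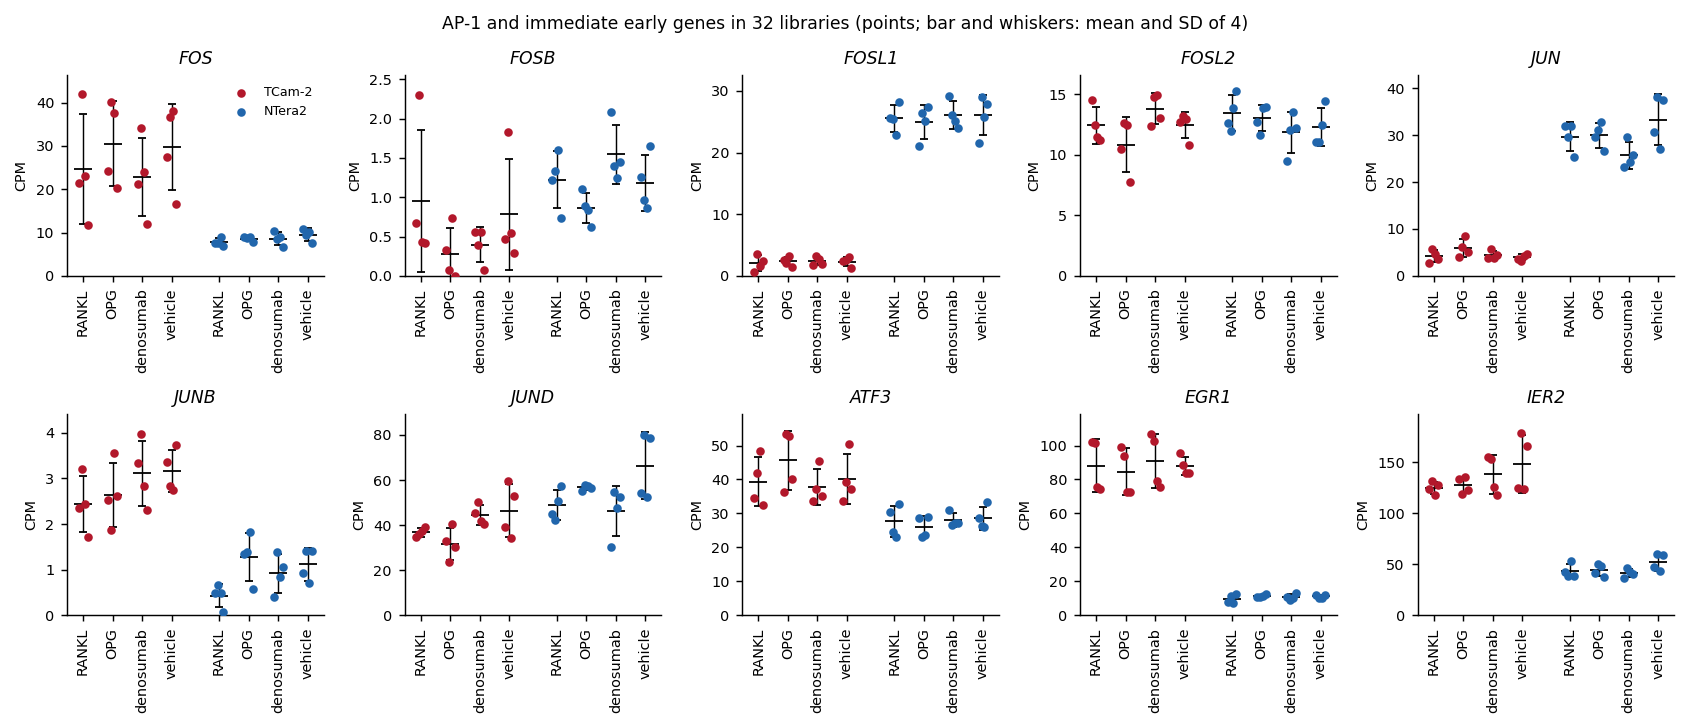
CPM of each gene in the 32 libraries (points) with the mean and SD of each group of 4, TCam-2 in red on the left and NTera2 in blue on the right of each panel, on linear axes that start at 0. EGR1, IER2 and FOS are higher in all TCam-2 libraries and FOSL1 and JUN in all NTera2 libraries, while treatments within a line largely overlap.

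The lines were then compared within each treatment, TCam-2 over NTera2, with edgeR's quasi-likelihood test and Benjamini-Hochberg adjustment over all genes tested. In bulk RNA a lower level per cell and fewer cells with the transcript cannot be told apart, and line and culture medium cannot be told apart either. With vehicle, 8 of the 10 genes passed an adjusted p of 0.05, 5 higher and 3 lower in TCam-2. This is close to the background, since 76.2% of the 16816 genes tested passed, 37.4% higher and 38.8% lower. The counts were 8 (5 higher, 3 lower) with RANKL, 9 (5 higher, 4 lower) with OPG and 8 (5 higher, 3 lower) with denosumab, against backgrounds of 74.3% (37.5% higher, 36.9% lower), 76.2% (36.8% higher, 39.4% lower) and 79.7% (39.6% higher, 40.1% lower). Groups of 4 did not overlap for 7, 8, 8 and 7 of the genes with RANKL, OPG, denosumab and vehicle, against 68.8%, 70.7%, 74.2% and 70.0% of all genes tested. What follows is therefore the size and direction for each gene and not a count that sets the group apart.

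EGR1, the zinc finger factor induced by ERK and SRF, showed the largest rise of the 10. It was at 95.6, 88.3, 83.9 and 83.8 CPM in TCam-2 vehicle libraries, against 11.9, 10.3, 10.3 and 11.9 CPM in NTera2 vehicle libraries. All TCam-2 values lay far above all NTera2 values, with no overlap, and the log2 fold change was 3.00 ± 0.10 (SE), or 8.0-fold (adjusted p = 9.39e-14). With RANKL, OPG and denosumab the log2 fold change was 3.19, 2.89 and 3.03.

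FOS, the founding member of its family, was at 27.4, 36.6, 38.2 and 16.6 CPM in TCam-2 vehicle libraries, against 10.9, 9.40, 10.2 and 7.56 CPM in NTera2 vehicle libraries. The groups did not overlap, although TCam-2 replicate 4 lay nearer to NTera2 than to TCam-2 replicate 3. FOS was 3.16-fold higher in TCam-2 (log2 fold change 1.66 ± 0.218, adjusted p = 3.09e-06), and the log2 fold change was 1.64, 1.81 and 1.36 with RANKL, OPG and denosumab. Without the low-RIN libraries the value with RANKL was 1.49.

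IER2 was at 125, 179, 124 and 166 CPM in TCam-2 vehicle libraries, against 46.8, 60.04, 43.0 and 58.5 CPM in NTera2 vehicle libraries. The groups did not overlap, and replicates 2 and 4 were the high ones in both lines. IER2 was 2.89-fold higher in TCam-2 (log2 fold change 1.53 ± 0.138, adjusted p = 3.10e-08), with 1.52, 1.5 and 1.69 under RANKL, OPG and denosumab.

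JUNB and ATF3 were also higher in TCam-2, by less or at low counts. JUNB was at 3.35, 2.84, 2.74 and 3.73 CPM in TCam-2 vehicle libraries, against 0.928, 1.42, 0.707 and 1.42 CPM in NTera2 vehicle libraries, and these groups did not overlap (log2 fold change 1.51 ± 0.294, adjusted p = 0.000196). Under RANKL, OPG and denosumab its log2 fold change was 2.45, 1.03 and 1.70, from 1 to 51 counts per library. The call with OPG (adjusted p = 0.0145) was lost without TCam-2 OPG replicate 3 (adjusted p = 0.0530) or NTera2 OPG replicate 4 (adjusted p = 0.0595). ATF3 was at 33.5, 39.4, 50.6 and 37.1 CPM in TCam-2 vehicle libraries, against 28.6, 26.3, 26.0 and 33.2 CPM in NTera2 vehicle libraries, which just did not overlap (log2 fold change 0.51 ± 0.127, adjusted p = 0.00167). With RANKL, OPG and denosumab ATF3 gave 0.48, 0.79 and 0.39, all past the threshold, and its groups overlapped with RANKL.

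FOSL1 and JUN were lower in TCam-2 by a wide margin. FOSL1 was at 2.42, 2.56, 2.98 and 1.29 CPM in TCam-2 vehicle libraries, against 21.6, 29.0, 25.8 and 28.0 CPM in NTera2 vehicle libraries. The groups were far apart, and FOSL1 was 11.2-fold lower in TCam-2 (log2 fold change -3.49 ± 0.198, adjusted p = 8.22e-11), with -3.65, -3.50 and -3.52 under RANKL, OPG and denosumab. Without the low-RIN libraries the value with RANKL was -4.49; TCam-2 RANKL replicates 1 and 3 held 0.605 and 1.63 CPM and replicates 2 and 4 held 3.61 and 2.38 CPM.

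JUN, the main transactivating partner of FOS, was at 3.67, 3.21, 4.23 and 4.67 CPM in TCam-2 vehicle libraries, against 30.6, 38.2, 27.1 and 37.4 CPM in NTera2 vehicle libraries. The groups did not overlap, and JUN was 8.30-fold lower in TCam-2 (log2 fold change -3.05 ± 0.157, adjusted p = 2.28e-11). Its log2 fold change was -2.84, -2.35 and -2.61 with RANKL, OPG and denosumab. Of FOS and JUN, which can form a dimer, FOS was thus higher and JUN lower in TCam-2 than in NTera2.

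JUND, FOSB and FOSL2 gave small or unsteady differences. JUND was at 39.0, 59.6, 34.2 and 52.7 CPM in TCam-2 vehicle libraries, against 54.2, 80.1, 52.6 and 78.7 CPM in NTera2 vehicle libraries, and the groups overlapped (log2 fold change -0.49 ± 0.175, adjusted p = 0.0171). This call was lost without NTera2 vehicle replicate 2 (adjusted p = 0.0646) or replicate 4 (adjusted p = 0.0571). JUND was at -0.43 with RANKL (adjusted p = 0.000985), -0.87 with OPG (adjusted p = 1.55e-06) and -0.11 with denosumab (adjusted p = 0.469), and leaving out NTera2 denosumab replicate 1 gave -0.26 (adjusted p = 0.00702).

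FOSB was at 0.468, 1.83, 0.549 and 0.287 CPM in TCam-2 vehicle libraries, against 1.26, 0.965, 0.864 and 1.65 CPM in NTera2 vehicle libraries. Replicate 2 of TCam-2 lay above every NTera2 value and the other TCam-2 libraries below, so the groups overlapped and no call was made (log2 fold change -0.63 ± 0.496, adjusted p = 0.254). Without that replicate the log2 fold change was -1.47 (adjusted p = 0.00692). With RANKL it was -0.39 (adjusted p = 0.519), and -1.28 (adjusted p = 0.0387) without TCam-2 RANKL replicate 2, with a RIN of 6.1, and -1.18 (adjusted p = 0.137) without both low-RIN libraries. FOSB was lower in TCam-2 with OPG (-1.81, adjusted p = 0.0196) and denosumab (-1.93, adjusted p = 0.000266), and the OPG call was lost without TCam-2 OPG replicate 2 (adjusted p = 0.0572) or NTera2 OPG replicate 1 (adjusted p = 0.0626).

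FOSL2 was at 12.7, 13.2, 12.9 and 10.8 CPM in TCam-2 vehicle libraries, against 11.1, 11.1, 12.5 and 14.4 CPM in NTera2 vehicle libraries. These values overlapped, and the log2 fold change was 0.03 ± 0.141 (adjusted p = 0.830). With OPG it was -0.29 (adjusted p = 0.105), and -0.39 (adjusted p = 0.0416) without TCam-2 OPG replicate 2. Without the low-RIN libraries 8 of the 10 genes were again called with RANKL, and the log2 fold changes not yet given were 3.18 for EGR1, 1.46 for IER2, 2.42 for JUNB, 0.55 for ATF3, -0.47 for JUND, -3.02 for JUN and -0.08 for FOSL2.

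**Figure D3:**
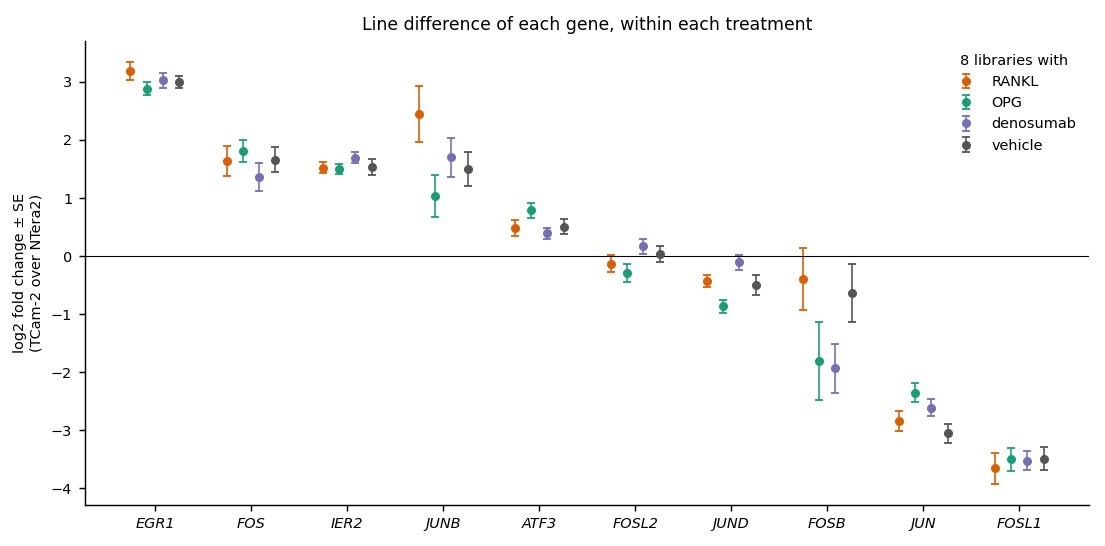
Log2 fold change of TCam-2 over NTera2 with its SE for each gene, fitted within each of the 4 treatments (8 libraries a fit). Values above 0 are higher in TCam-2; EGR1 stands between 2.89 and 3.19 and FOSL1 between -3.65 and -3.49 over the treatments, and FOSB has the widest error bars.

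Lists of genes around AP-1 and EGR1 were read in the same vehicle comparison. Among other bZIP partners, 16 of 19 tested genes passed the threshold, 10 higher and 6 lower in TCam-2. BATF3, a dimer partner of JUN proteins, was at 11.9 ± 2.86 CPM in TCam-2 and 1.33 ± 0.320 CPM in NTera2 (log2 fold change 3.15), and ATF2, a JUN partner phosphorylated by JNK and p38, was at 21.2 ± 3.94 CPM in TCam-2 and 50.3 ± 2.74 CPM in NTera2 (-1.23; SD, n = 4 libraries a group). ATF5 and NFE2L1 were higher by 2.11 and 0.71 on the log2 scale, ATF6 was lower (-3.13), and MAF was at 0.366 ± 0.503 CPM in TCam-2 and 19.6 ± 1.82 CPM in NTera2. Among other immediate early genes, 24 of 32 passed, 14 higher and 10 lower. KLF4, a zinc finger factor of pluripotency, was at 129.6 ± 11.2 CPM in TCam-2 and 11.1 ± 2.28 CPM in NTera2 (3.55), and IER3 at 66.1 ± 12.3 CPM in TCam-2 and 13.2 ± 1.21 CPM in NTera2 (2.34). SGK1, a serum-induced kinase, gave 6.50, and RHOB and TRIB1 were lower in TCam-2, each by a log2 fold change of -1.85. DUSP2, a nuclear MAP kinase phosphatase, was at 0.0654 ± 0.0868 CPM in TCam-2 and 10.99 ± 1.10 CPM in NTera2.

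Of the ERK, JNK and p38 pathway genes and SRF, 26 of 30 passed, 11 higher and 15 lower in TCam-2. MAPK9, which encodes JNK2, was at 60.5 ± 5.24 CPM in TCam-2 and 21.8 ± 1.20 CPM in NTera2 (log2 fold change 1.49, adjusted p = 3.26e-10). DUSP16, a phosphatase that acts on JNK, was at 53.8 ± 7.36 CPM in TCam-2 and 199 ± 8.84 CPM in NTera2 (-1.87). The p38 kinase genes went both ways, MAPK13 at 4.81 and MAPK11 at -3.23, and MAP2K3, which activates p38, gave -1.37. All 21 tested AP-1 target genes passed, 8 higher and 13 lower, with a median log2 fold change of -1.47 against -0.01 over all genes tested. CCND1, the cyclin that drives entry into S phase, was at 4.02 ± 1.53 CPM in TCam-2 and 267.4 ± 22.8 CPM in NTera2 (-6.01), HMOX1 gave -3.59 and ODC1 -3.36, whereas NQO1 gave 2.71, LMNA 2.49 and IL6, at 6.71 CPM in TCam-2 and 0.265 CPM in NTera2, 4.70. Among EGR1 target and co-regulator genes 15 of 16 passed, 7 higher and 8 lower, among them SPRY4, a feedback inhibitor of ERK signalling, at 2.14, SPRED2, another ERK pathway inhibitor, at 1.92, F3 at 1.62, SPRY2 at -1.09 and the matrix genes THBS1 at -2.20 and FN1 at -1.51. Against a background of 76.2% these shares describe how widely the lines differ. The lists were chosen with earlier results of these data known, so the median of the AP-1 target genes is a description only.

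Whether RANKL, OPG or denosumab moved the 10 genes was asked within each line. None passed an adjusted p of 0.05 against vehicle by edgeR's quasi-likelihood test: 0 of 57 tests over 6 comparisons, with 11 at an unadjusted p under 0.05 and a smallest adjusted p of 0.404. DESeq2 also called 0 of these genes. The background was the same, 0% of 17351 genes in NTera2 and 0% of 16621 genes in TCam-2 for each treatment. FOSB did not pass the filter on low counts in TCam-2, so 9 genes were tested there. The 3 comparisons of a line share its vehicle libraries. All libraries were taken at 48 h, so a rise that had fallen again by then would not be seen. Passage was not in these fits, so differences between passages count toward each SE. The median SE over the 57 tests was 0.15 on the log2 scale, and the SE was 0.390 for FOS in TCam-2 and 0.485 for JUNB in NTera2, both with RANKL.

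In TCam-2 with RANKL, FOS was at 21.5, 42.1, 23.1 and 11.7 CPM, against 27.4, 36.6, 38.2 and 16.6 CPM with vehicle. The groups overlapped, and FOS gave a log2 fold change of -0.31 ± 0.390 (adjusted p = 0.795), or -0.46 (adjusted p = 0.590) without the low-RIN libraries. FOS was lower than with vehicle in 3 of 4 passages with RANKL. It was lower in 4 of 4 with denosumab (-0.43 ± 0.395, adjusted p = 0.831) and in 2 of 4 with OPG (0.01 ± 0.389, adjusted p = 0.996). EGR1 was at 102, 101, 75.3 and 74.4 CPM with RANKL, against 95.6, 88.3, 83.9 and 83.8 CPM with vehicle (-0.04 ± 0.129, adjusted p = 0.941). The EGR1 groups overlapped too, with replicates 1 and 2 the higher ones in both, and the value was -0.04 (adjusted p = 0.931) without the low-RIN libraries.

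Unadjusted p under 0.05 was reached in TCam-2 by 2 of 9 genes with RANKL (JUND and IER2), against 8.92% of all genes, by 3 of 9 with OPG (JUND, IER2 and JUN), against 8.68%, and by 0 of 9 with denosumab, against 6.56%. JUND was at 32.7, 23.4, 40.7 and 30.1 CPM with OPG, against 39.0, 59.6, 34.2 and 52.7 CPM with vehicle (log2 fold change -0.59 ± 0.156, adjusted p = 0.471). OPG replicate 3 lay above vehicle replicates 1 and 3, so the groups overlapped, and the value was lower with OPG in 3 of 4 passages. Without the filter on low counts JUND passed the threshold here (-0.58, adjusted p = 0.000164). JUN was at 4.08, 6.22, 8.48 and 5.17 CPM with OPG, against 3.67, 3.21, 4.23 and 4.67 CPM with vehicle (0.56 ± 0.247, adjusted p = 0.544), higher with OPG in 4 of 4 passages. The JUN groups overlapped only through OPG replicate 1. With RANKL JUND gave -0.39 ± 0.154 (adjusted p = 0.557), or -0.43 (adjusted p = 0.338) without the low-RIN libraries, and was lower in 3 of 4 passages. IER2 with RANKL gave -0.30 ± 0.114 (adjusted p = 0.557), or -0.36 (adjusted p = 0.298) without those libraries, and was lower in 4 of 4 passages. Without the low-RIN libraries 0 members were called in TCam-2 with RANKL as well.

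In NTera2 the unadjusted p was under 0.05 for 3 of 10 genes with RANKL (JUNB, JUND and IER2), against 10.3% of all genes, for 0 of 10 with OPG, against 1.68%, and for 3 of 10 with denosumab (JUN, JUND and IER2), against 7.25%. JUNB was at 0.490, 0.664, 0.494 and 0.0674 CPM with RANKL, against 0.928, 1.42, 0.707 and 1.42 CPM with vehicle. All RANKL values lay below all vehicle values, from 1 to 16 counts against 9 to 24 counts, and 3.92% of all genes did not overlap in this comparison. The log2 fold change of -1.32 ± 0.485 did not pass (adjusted p = 0.404). OPG against RANKL gave JUNB 1.51 ± 0.480 (adjusted p = 0.913), a comparison that shares the same 4 RANKL libraries.

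JUND was at 30.4, 54.6, 47.4 and 52.4 CPM with denosumab in NTera2, against 54.2, 80.1, 52.6 and 78.7 CPM with vehicle (log2 fold change -0.50 ± 0.151, adjusted p = 0.420). JUN was at 23.1, 29.7, 24.3 and 25.8 CPM with denosumab, against 30.6, 38.2, 27.1 and 37.4 CPM with vehicle (-0.35 ± 0.106, adjusted p = 0.408). IER2 was at 36.4, 45.7, 42.5 and 40.2 CPM with denosumab, against 46.8, 60.04, 43.0 and 58.5 CPM with vehicle (-0.31 ± 0.111, adjusted p = 0.476). All 3 genes were lower with denosumab in 4 of 4 passages, and each pair of groups overlapped. FOS was lower in 4 of 4 passages too, with a log2 fold change of only -0.13 (adjusted p = 0.902). Without the filter on low counts IER2 passed with denosumab (-0.32, adjusted p = 0.0486). With RANKL JUND was also lower in 4 of 4 passages (-0.41 ± 0.149, adjusted p = 0.405), and IER2 was lower in 3 of 4 (-0.25 ± 0.109, adjusted p = 0.458).

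Replicates 2 and 4 with vehicle held the highest JUND values of their line in both lines, 59.6 and 52.7 CPM in TCam-2 and 80.1 and 78.7 CPM in NTera2. The same 4 libraries held the highest IER2 values of their line, and in NTera2 also the highest JUN values. Comparisons with vehicle for these genes therefore rest in part on those libraries, and what sets them apart was not tested. JUND and IER2 also moved together over the 16 libraries of a line, with a Pearson r of 0.79 in TCam-2 and 0.73 in NTera2 on log2 CPM, as did JUN and IER2 (0.86) and JUN and JUND (0.70) in NTera2. These libraries share passages and treatments, so the r values are descriptions.

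**Figure D4:**
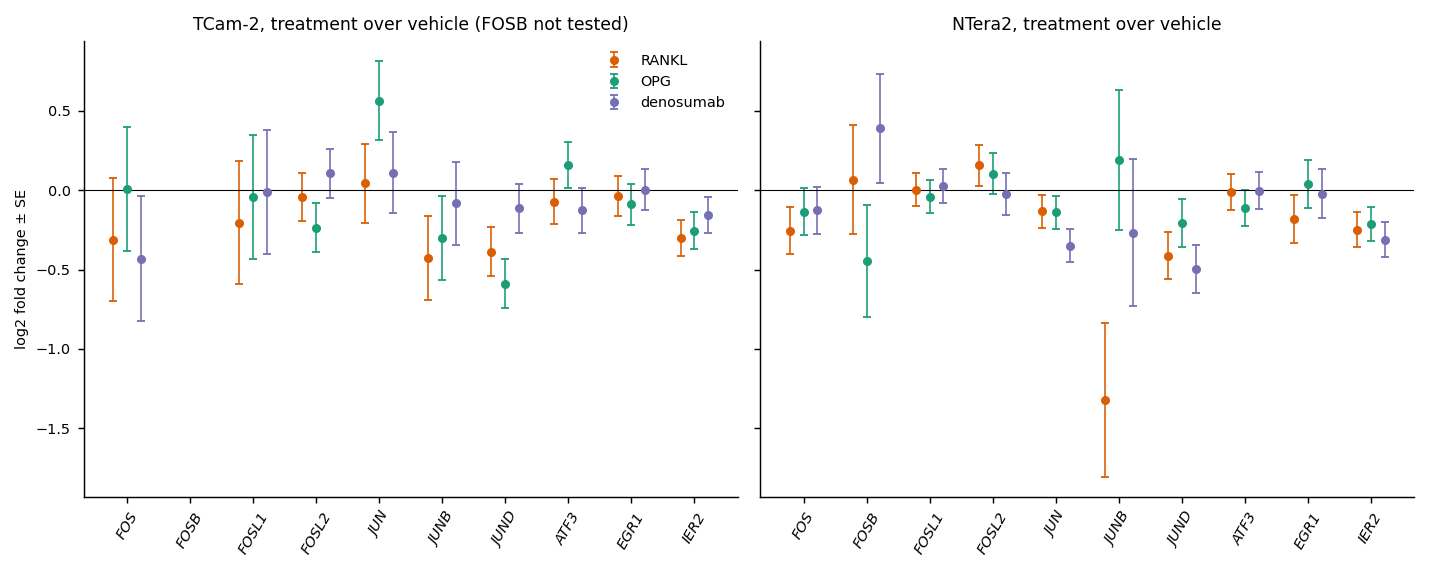
Log2 fold change of RANKL, OPG and denosumab over vehicle with its SE for each gene, TCam-2 on the left and NTera2 on the right. JUNB with RANKL in NTera2 stands lowest at -1.32. In TCam-2 JUND lies below 0 by more than its SE at -0.39 with RANKL and -0.59 with OPG. In NTera2 JUND does so at -0.41 with RANKL, -0.21 with OPG and -0.50 with denosumab. No point passed the adjusted threshold.

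Set against RANKL, OPG and denosumab likewise moved none of the genes past the threshold in either line. Adding these 4 comparisons gave 0 of 95 tests called by edgeR, 14 at an unadjusted p under 0.05 and a largest log2 fold change of 1.51 in size, with 0 called by DESeq2, and 0 without the low-RIN libraries. The background was 0% of all genes in each. Unadjusted p was under 0.05 in TCam-2 for 1 of 9 genes with OPG (JUN), against 5.14% of all genes, and 0 of 9 with denosumab, against 0.933%. In NTera2 it was so for 1 of 10 with OPG (JUNB), against 5.01%, and 1 of 10 with denosumab (JUNB), against 4.36%. In TCam-2 JUND was at 45.5, 50.2, 41.8 and 40.4 CPM with denosumab, against 34.5, 35.9, 37.3 and 39.1 CPM with RANKL. These groups did not overlap (background 1.65%), and the log2 fold change was 0.27 ± 0.154 (adjusted p = 1.00), or 0.32 (adjusted p = 0.998) without the low-RIN libraries.

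Whether a treatment acted differently in TCam-2 than in NTera2 was tested as the interaction of line and treatment. None of 30 tests passed by edgeR, against 0% of 19216 genes, with 1 at an unadjusted p under 0.05, and DESeq2 called 0, as did the fit without the low-RIN libraries. Of all genes 5.22%, 5.2% and 4.78% had an unadjusted p under 0.05 for RANKL, OPG and denosumab. The single test was JUN with OPG, whose change in TCam-2 exceeded that in NTera2 by 0.71 ± 0.249 on the log2 scale (adjusted p = 0.855). None of the genes of the 5 lists passed the threshold in any of these 13 treatment, inhibitor or interaction comparisons either (smallest adjusted p = 0.321).

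FOS, EGR1 and ATF3 differed between the passages of TCam-2. Passage was tested with treatment in the model, and 3 of the 9 genes tested passed, against 1.77% of 16621 genes. At an unadjusted p under 0.05 the same 3 genes stood against 14.4% of all genes. The passages are separate experiments, so passage number, day and handling cannot be told apart.

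FOS in TCam-2 was at 21.5, 24.2, 21.2 and 27.4 CPM at passage 118 with RANKL, OPG, denosumab and vehicle, and at 42.1, 40.1, 34.1 and 36.6 CPM at passage 120. It was at 23.1, 37.6, 23.9 and 38.2 CPM at passage 121 and at 11.7, 20.3, 12.0 and 16.6 CPM at passage 122. All libraries of passage 122 lay below all libraries of the other 3 passages, and at passage 121 OPG and vehicle were high while RANKL and denosumab were low. The passage means were 23.6 ± 2.90, 38.2 ± 3.57, 30.7 ± 8.29 and 15.1 ± 4.12 CPM in that order (SD over 4 treatments). The means of the extreme passages differed 2.52-fold, and edgeR's quasi-likelihood F test gave an adjusted p of 1.81e-05, or 0.000528 without the low-RIN libraries.

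EGR1 in TCam-2 averaged 100.8 ± 4.70, 96.5 ± 6.79, 77.7 ± 4.95 and 76.6 ± 4.95 CPM at passages 118, 120, 121 and 122 (adjusted p = 0.000924). Every library of passages 118 and 120 lay above every library of passages 121 and 122. ATF3 averaged 34.5 ± 1.29, 43.0 ± 7.18, 49.3 ± 3.13 and 36.2 ± 3.26 CPM (adjusted p = 0.00317), highest at passage 121. Without the low-RIN libraries both passed (adjusted p = 0.00870 for EGR1 and 0.0132 for ATF3). Without the 4 RANKL libraries neither did (adjusted p = 0.0877 for EGR1 and 0.0790 for ATF3), and without the 4 denosumab libraries EGR1 gave an adjusted p of 0.0524.

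In NTera2 only ATF3 passed among the 10 genes, against 8.28% of 17351 genes. ATF3 averaged 29.7 ± 1.15, 25.1 ± 1.63, 24.95 ± 1.93 and 30.5 ± 2.86 CPM at passages 27, 29, 30 and 31 (adjusted p = 0.0216). Passages 27 and 31 were the high ones, and the call was lost without the vehicle libraries (adjusted p = 0.0620), the RANKL libraries (0.143) or the OPG libraries (0.229). FOS averaged 9.43, 8.54, 9.26 and 7.24 CPM (adjusted p = 0.164) and EGR1 10.4, 10.4, 9.65 and 12.4 CPM (adjusted p = 0.226). The difference between the lines in how far FOS varies by passage was not tested. At an unadjusted p under 0.05 stood 4 of the 10 genes, against 24.2% of all genes.

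**Figure D5:**
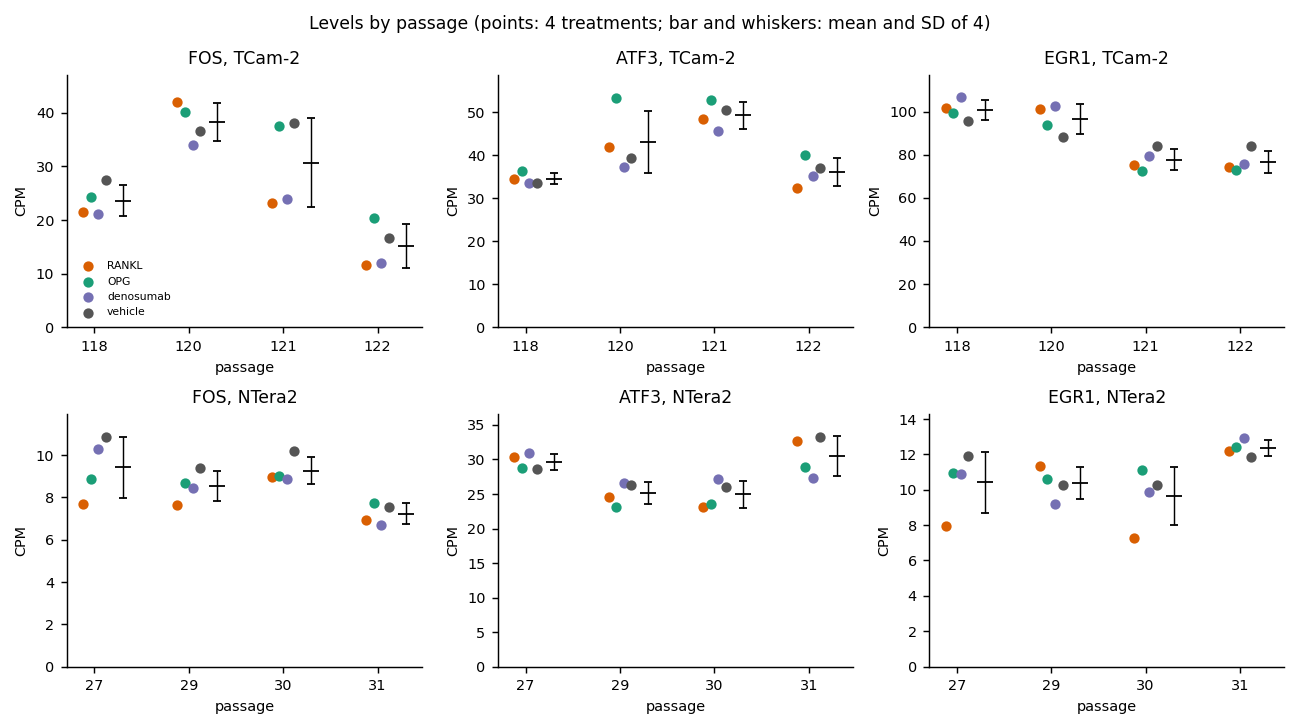
CPM of FOS, ATF3 and EGR1 at each passage of TCam-2 (top) and NTera2 (bottom), a point for each treatment, with the mean and SD of the 4 libraries to the right of the points, on linear axes from 0. In TCam-2, FOS is highest at passage 120 and lowest at passage 122, and EGR1 is higher at passages 118 and 120 than at 121 and 122.

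Among other immediate early genes, 9 of 29 tested in TCam-2 differed by passage, against 1.77% of all genes, and 8 of 34 in NTera2, against 8.28%. MYC in TCam-2 averaged 25.2 ± 1.27, 32.6 ± 7.52, 27.2 ± 3.03 and 42.9 ± 1.30 CPM at passages 118, 120, 121 and 122 (adjusted p = 0.000776), and CCN1, a secreted matrix protein gene, 38.6 ± 1.68, 41.0 ± 5.03, 29.5 ± 2.08 and 47.7 ± 3.49 CPM (adjusted p = 0.000263). Both were highest at passage 122, where FOS was lowest. IER3 averaged 62.4, 70.6, 56.7 and 73.7 CPM (adjusted p = 0.00861). In NTera2 SOCS3, a cytokine-signalling inhibitor, ZFP36L1 and CSRNP1 were the 3 with the smallest p (adjusted p = 0.0230, 0.0232 and 0.0275).

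DUSP6, a phosphatase that acts on ERK and is itself induced by ERK signalling, differed by passage in both lines. It averaged 20.7 ± 2.14, 10.6 ± 1.92, 10.5 ± 0.949 and 16.6 ± 2.51 CPM at passages 118, 120, 121 and 122 of TCam-2 (adjusted p = 6.58e-05) and 45.4 ± 3.41, 35.4 ± 2.66, 39.0 ± 2.86 and 31.0 ± 4.71 CPM at passages 27, 29, 30 and 31 of NTera2 (adjusted p = 0.000571). In TCam-2 the low DUSP6 passages, 120 and 121, were the high FOS passages. In NTera2 the 2 genes ran together instead, both highest at passage 27 and lowest at passage 31, although FOS did not pass by passage there. MAP2K6, a p38 kinase activator, passed in both lines too, which made 2 of 30 pathway genes in TCam-2 and 4 of 30 in NTera2. The share of all genes called by passage, against which these and the next counts stand, was 1.77% in TCam-2 and 8.28% in NTera2. Among AP-1 target genes 3 of 19 passed in TCam-2 (VIM, NQO1 and LMNA) and 4 of 21 in NTera2 (LMNA, ODC1 and MMP2 with the smallest p). VIM, the intermediate filament vimentin, averaged 1021 ± 18.7 CPM at passage 118 of TCam-2 and 703 to 782 CPM at the other 3. Of EGR1 targets 1 of 16 passed in TCam-2 (SPRY4) and 4 of 16 in NTera2 (FN1, CDKN1A and SPRY4 with the smallest p), and of bZIP partners 1 of 17 (ATF4) and 1 of 19 (MAFG).

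The genes whose levels followed FOS, JUN and EGR1 most closely were read from log2 CPM over the 16 libraries of each line, among 9332 to 9641 genes averaging at least 10 CPM. In TCam-2 FOS was most like TOB2 (Pearson r = 0.80), DNAJB1, a heat shock co-chaperone (0.79), and CEBPB, a bZIP factor (0.78). JUN was most like SMARCD2 (0.85), NLRP12 (0.85) and SHMT2 (0.84), and EGR1 most like COL22A1 (0.88), PEBP1 (0.83) and IFNGR2 (0.83). In NTera2 FOS was most like PLEKHA6 (0.82), DUSP6 (0.80) and ENOX2 (0.78), the genes close to JUN included MVD (0.93) and SIN3B (0.93), and EGR1 was most like PRR3 (0.79), YBX2 (0.76) and PCMT1 (0.73). No gene stood among the 3 closest in both lines. The libraries share passages and treatments, and with so many genes compared over 16 libraries these values are descriptions only. Among the members, FOS and ATF3 had an r of 0.62 in TCam-2.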

How the data were processed

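RNA was measured as polyadenylated transcripts in 32 libraries of 2 cell lines, sequenced as stranded paired 52-bp reads per the labels' protocols. Per the submitters' processing notes, the authors used bcl2fastq 2.20.0, STAR 2.7.9a, featureCounts 1.6.2 and hg38. The deposited values are raw counts per gene, and the deposited table also gives gene lengths and positions. The annotation release and the strand setting are not given in the sources used here. All 32 columns were matched to a sample.

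Tests used edgeR 4.0.16 with limma 3.58.1 under R 4.3.3: filterByExpr, TMM normalization, robust dispersion, quasi-likelihood F tests and Benjamini-Hochberg adjustment over all genes tested, called at an adjusted p under 0.05. The SE is the size of the log2 fold change divided by the square root of F. Treatments, inhibitors and passage were fitted on the 16 libraries of each line, 8 libraries for each line comparison, and all 32 for the interactions, which made 19 comparisons. CPM was scaled by TMM factors of the 32 libraries, and RPKM divided CPM by the deposited length in kilobases. The procedure was tested on simulated data, whose treatment and interaction settings held no passage effect. Members and gene lists were chosen with earlier results of these data known, and counts over a list are set beside the share of all genes called. The genes named beside the 10 are those of the lists past the threshold, at most 3 per direction for lines and 3 per line for passages by smallest p, and the 3 genes closest to FOS, JUN and EGR1 by Pearson r (log2 CPM, prior count 2); some of these are not reported here.

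Replicate numbers of a line mark the same passage in the labels, so they pair its libraries. Deviations from the group mean correlated at a median of 0.0647 (NTera2) and 0.0547 (TCam-2) between libraries of 1 passage, against -0.030 and -0.016 between passages. Any 2 libraries of a group differed beyond counting noise (chi-square per degree of freedom 2.57 to 17.5 over 48 pairs), so none was merged. With total counts between 10585247 and 30499538, genes near 1 CPM such as FOSB and JUNB rest on 0 to 52 counts. Alternatives were RLE size factors, DESeq2 1.42.0, no filter, a replicate block, leaving out each library, the low-RIN libraries, or 1 treatment for passage. Motifs were searched in RefSeq GRCh38.p14 promoters.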

Additional observations from a re-analysis of the deposited data

Results flagged for a closer look

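Among the 80 groups of 4 libraries (10 genes, 8 groups), 3 held a library far from the other 3. Chance flags about 1 group in 20, so 3 of 80 is no more than chance would give. FOSB in TCam-2 RANKL replicate 2 was at 2.30 CPM, against 0.416 to 0.673 CPM in the other 3 libraries, and this library has a RIN of 6.1. FOSB in TCam-2 vehicle replicate 2 was at 1.83 CPM, against 0.287 to 0.549 CPM. Both libraries are of passage 120, whose OPG and denosumab libraries were at 0.0691 and 0.397 CPM. ATF3 in NTera2 denosumab replicate 1 was at 30.9 CPM, against 26.6 to 27.3 CPM. Whether anything sets these libraries apart was not tested.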

How the results depend on the processing

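Of 2398 values of the 10 genes under the alternatives, 2377 kept their direction or stayed uncalled and their side of the threshold, 13 were no longer called, 8 were newly called and 0 called values changed sign; 1883 were uncalled under both settings, of which 175 changed sign. With the replicate block 0 members were called in each of the 13 treatment, inhibitor and interaction comparisons, as without it. Without a filter on low counts 1 member was called in NTera2 with denosumab (IER2, log2 fold change -0.32, adjusted p = 0.0486) and 1 in TCam-2 with OPG (JUND, -0.58, adjusted p = 0.000164); over all genes 237 and 54 were then called, and the cause was not tested. Leaving out each library gave 7 to 9 members called between the lines with vehicle, 8 to 9 with RANKL, OPG or denosumab, and 0 to 0 in all treatment, inhibitor and interaction comparisons. The number called by passage in NTera2 was 2 with DESeq2 and 2 without a filter (JUND beside ATF3, adjusted p = 0.0202 and 5.02e-05), and 0 without the vehicle, RANKL or OPG libraries; in TCam-2 it was 1 without the RANKL libraries (FOS). FOSB between the lines with OPG was lost with DESeq2 (adjusted p = 0.0505). Over all genes, passage calls were 1436 in NTera2 (1966 with DESeq2, 1883 without a filter). In NTera2 they were 1381, 631, 149 and 813 without the vehicle, RANKL, OPG and denosumab libraries. In TCam-2 they were 294 (672 with DESeq2, 750 without a filter, 140 without low-RIN libraries). Without the vehicle, RANKL, OPG and denosumab libraries of TCam-2 they were 224, 44, 100 and 80. Calls over all genes in NTera2 with denosumab were 16 with DESeq2 and 30 with the replicate block, against 0. Without a filter 176 were called in NTera2 with RANKL, 51 and 28 in TCam-2 with RANKL and denosumab, and 32 in the interaction for denosumab. Each stands against 0. The other treatment, inhibitor and interaction comparisons had at most 3 under RLE size factors, DESeq2, no filter, a replicate block or without the low-RIN libraries. Counts over all genes with each library left out are not given here. FOSB and JUNB are limited by depth.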
